A study of Homo sapiens with 8 samples.

Results

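The human genes for collagens and laminins were followed through the open chromatin of cardiac differentiation. Members were the autosomal protein-coding genes of GENCODE whose symbols have the form COL, number, A, number or LAMA, LAMB or LAMC with a number, which gave 54 of 19103 autosomal protein-coding genes. Of these 42 encode collagen chains and 12 encode laminin chains. The choice used symbols only and no measured value. All peaks that overlapped a gene span with 5 kb on either side were collected and merged across libraries, which gave 1057 of 276061 merged autosomal regions.

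RUES2, a human embryonic stem cell line in wide use, was sampled as hESC at day 0, as mesodermal cells (MES) at day 2, as cardiac progenitors (CP) at day 5 and as cardiomyocytes (CM) at day 14, with 2 ATAC-seq libraries per stage. All cells grew on a recombinant laminin coating (lamin-521 in the labels), so that a laminin was supplied from outside. CHIR-99021 was given before and from day 0, Xav-939 was added on day 3, inhibitors were absent from day 5 and B27 was added from day 7, so that time and medium cannot be told apart. ATAC-seq marks DNA that a transposase can reach, and each peak has a fold, its read pileup divided by the background around it.

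Collagens are triple helices built from 3 chains that form fibrils, networks or transmembrane proteins, and laminins are cross-shaped heterotrimers of an alpha, a beta and a gamma chain. Laminins and collagen IV are the 2 networks of the basement membrane, the sheet on which epithelia rest and which surrounds every cardiomyocyte, while fibrillar collagens I and III, made mostly by fibroblasts in the heart, carry its tension. Many of these genes are long, with large first introns that hold regulatory DNA.

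The lists held 99522 and 150915 autosomal peaks in hESC, 104405 and 150362 (MES), 96466 and 115890 (CP), and 89801 and 54018 (CM), so that CM replicate 2 stood apart as the shortest list. The lists hold no read counts, but the background read pileup that a peak's fold and p-value imply, which rises with depth, was 2.54 in CM replicate 2 and 3.13 to 4.62 in the other libraries. Across the 13109 genes with a start peak in all 8 libraries, start signals correlated at r = 0.911 between the CM replicates. They correlated at 0.897 between the CP replicates and at 0.926 between CP replicate 1 and CM replicate 1. Genes that lacked a start peak in any library were left out of these correlations. A missing peak says only that a site did not pass the caller's threshold in that list. As markers, NANOG had a start peak in hESC and MES libraries only, with folds of 5.79, 4.49, 4.49 and 4.27. MYL7, an atrial myosin light chain, had none in hESC. Its folds were 2.48 and 3.17 (MES), 3.44 and 4.23 (CP) and 4.71 and 4.27 (CM). MYH6 had a peak in CP replicate 2 and in both CM libraries. The stem cell gene POU5F1 and the ventricular gene MYL2 had no start peak in any library, NPPA had one in CM replicate 1 only, and the endothelial gene CDH5 had none. The stem cell gene SOX2 had folds of 4.47 and 4.91 in hESC and 6.84 and 6.56 in CM (limma adjusted p = 0.085), and the sarcomere gene ACTN2 had 9.31 and 8.52 in hESC and 7.95 and 7.69 in CM (limma adjusted p = 0.357), so both lay on the side opposite to their list without passing. Between hESC and CM 1 of 3 hESC markers tested passed, 0 of 4 for MES, 0 of 5 for CP and 1 of 4 for CM. Of the MES markers, MESP1 was lowest in MES (4.1 and 3.59) and highest in CM (6.73 and 7.74, limma adjusted p against hESC = 0.074). EOMES had 4.71 and 4.28 in MES and 5.55 and 6.25 in CM. MIXL1 also lay higher in CM than in MES, and TBXT lower. Of 8 markers of other cell types 6 were tested and WT1, a gene of the epicardium, passed at the edge of the threshold (limma adjusted p = 0.05, rounded). It had folds of 3.14 and 2.89 in hESC and no peak in CM. ACTA2 had no peak and 4.56 in hESC and 8.33 and 6.31 in CM, a log2 difference of 1.76 (SE 0.68, limma adjusted p = 0.172). SOX17 also lay higher in CM, and TCF21 and PDGFRB lower on average, without passing. FOXA2 had folds of 2.68 and 2.7 in hESC, 4.75 in CM replicate 1 and no peak in CM replicate 2, and did not pass. Bulk libraries cannot separate fewer cells of a type from less access per cell.

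Sequences of 3 kinds carry the results that follow, and each is given on the plus strand of GRCh38 unless stated. The first set is the start of LAMB3, the member whose lower signal in CM passed the test in all 15 settings that gave a value, and of the other member that passed the test, COL16A1. The start peak of LAMB3, chr1:209652801-209653426, was centred 689 bases upstream of the canonical start, and 200 bases around its centre are shown. Capitals mark an AP-1 motif (TGANTCA) and a TEAD motif (GGAATG).
LAMB3, start region, chr1:209653014-209653213: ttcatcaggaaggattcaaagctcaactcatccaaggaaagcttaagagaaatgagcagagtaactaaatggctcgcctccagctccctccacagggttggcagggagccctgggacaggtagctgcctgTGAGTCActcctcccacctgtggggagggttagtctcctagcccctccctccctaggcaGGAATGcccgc
For COL16A1 the 250 bases upstream of the start are shown as RefSeq gives them (GRCh38.p14), on the minus strand and so in the direction of transcription. Capitals mark 2 GC boxes (GGGCGG) and 1 E-box (CAGCTG).
COL16A1, upstream sequence, chr1:31704018-31704267: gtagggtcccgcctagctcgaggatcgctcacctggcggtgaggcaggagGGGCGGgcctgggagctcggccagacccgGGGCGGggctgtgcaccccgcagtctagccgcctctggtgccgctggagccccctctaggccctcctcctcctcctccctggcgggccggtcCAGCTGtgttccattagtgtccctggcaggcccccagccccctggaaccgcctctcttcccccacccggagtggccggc

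The second set is the interval between COL4A1 and COL4A2, which are transcribed away from each other. The interval holds the 126 bases between their starts, so that both genes read the same peak. It was 80.2% G or C. Capitals mark a CCAAT box and a GC box.
COL4A1 and COL4A2, interval, chr13:110307158-110307283: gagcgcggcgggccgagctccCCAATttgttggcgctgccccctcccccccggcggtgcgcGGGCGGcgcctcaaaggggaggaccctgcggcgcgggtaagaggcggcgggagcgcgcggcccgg

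The third set holds the regions away from canonical starts that were open at the named stages and in no library of the others, up to 2 for each pattern, chosen by the highest −log10 q in the weaker library among regions that hold no UTR. Regions of 1 chromosome were left out of the choice. Each is 200 bases around the centre of the region. Capitals mark the GATA motifs AGATAA or AGATAG or TGATAA or TGATAG, the NKX motif (TNAAGTG), the TEAD motif and the AP-1 motif, on either strand. The octamer (ATTTGCAT), T-box (AGGTGTGA) and E-box motifs were searched too and had no match in these windows. In the COL17A1 region a GATA and an NKX motif overlap.
COL8A1, hESC only, chr3:99716569-99716768: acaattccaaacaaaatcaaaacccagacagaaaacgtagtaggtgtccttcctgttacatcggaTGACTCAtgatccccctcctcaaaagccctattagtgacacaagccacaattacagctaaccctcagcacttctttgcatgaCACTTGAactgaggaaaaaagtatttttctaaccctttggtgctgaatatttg
COL24A1, hESC only, chr1:86100610-86100809: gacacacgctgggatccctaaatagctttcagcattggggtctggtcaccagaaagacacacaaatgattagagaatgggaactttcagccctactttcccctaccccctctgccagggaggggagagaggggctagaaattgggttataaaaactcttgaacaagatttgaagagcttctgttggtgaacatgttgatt
COL17A1, MES only, chr10:104069695-104069894: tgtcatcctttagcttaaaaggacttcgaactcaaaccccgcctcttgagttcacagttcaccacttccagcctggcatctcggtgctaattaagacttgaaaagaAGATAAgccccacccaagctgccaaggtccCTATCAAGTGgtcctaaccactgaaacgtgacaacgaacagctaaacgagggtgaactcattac
COL5A2, CP only, chr2:189222610-189222809: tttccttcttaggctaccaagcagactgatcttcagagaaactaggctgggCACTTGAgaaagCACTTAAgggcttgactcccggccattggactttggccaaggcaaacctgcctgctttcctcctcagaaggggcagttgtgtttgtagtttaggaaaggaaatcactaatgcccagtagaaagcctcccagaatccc
COL4A2, CP only, chr13:110490487-110490686: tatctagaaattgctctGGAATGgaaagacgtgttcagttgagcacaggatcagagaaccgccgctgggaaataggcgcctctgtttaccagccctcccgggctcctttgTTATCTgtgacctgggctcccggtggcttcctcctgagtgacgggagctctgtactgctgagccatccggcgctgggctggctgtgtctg
LAMA4, CM only, chr6:112259182-112259381: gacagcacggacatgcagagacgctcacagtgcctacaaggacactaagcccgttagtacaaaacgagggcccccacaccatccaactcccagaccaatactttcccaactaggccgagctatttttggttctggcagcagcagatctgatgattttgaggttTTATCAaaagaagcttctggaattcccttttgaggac
COL5A1, CM only, chr9:134707028-134707227: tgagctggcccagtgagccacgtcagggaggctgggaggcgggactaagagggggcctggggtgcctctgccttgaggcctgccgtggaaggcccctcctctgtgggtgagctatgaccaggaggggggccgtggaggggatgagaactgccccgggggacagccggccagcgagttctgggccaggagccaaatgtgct
COL23A1, CP and CM only, chr5:178465306-178465505: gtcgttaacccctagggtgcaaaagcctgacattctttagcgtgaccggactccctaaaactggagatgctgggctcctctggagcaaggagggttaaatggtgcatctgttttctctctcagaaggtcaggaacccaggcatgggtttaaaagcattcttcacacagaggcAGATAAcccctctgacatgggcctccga
COL23A1, CP and CM only, chr5:178449284-178449483: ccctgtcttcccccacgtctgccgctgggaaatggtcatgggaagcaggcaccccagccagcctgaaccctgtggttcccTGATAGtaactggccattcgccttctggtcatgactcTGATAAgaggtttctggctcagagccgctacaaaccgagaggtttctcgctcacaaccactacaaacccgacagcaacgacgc

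Most collagen and laminin genes kept an open start from hESC to CM. The start signal was the highest fold among peaks within 1 kb of the canonical start, divided by a library factor taken from regions open in all libraries. Of the 54 members, 41 (75.9%) had a start peak in all 8 libraries, against 68.6% of all autosomal protein-coding genes, 6 had one in 1 to 7 libraries and 7 (13%) in none, against 16.1%. The 7 without a start peak were COL3A1, COL9A1, COL10A1, COL17A1, COL20A1, COL28A1 and LAMB4. Their starts were poor in CpG, with a median observed over expected ratio of 0.182 within 500 bases on either side, while the 41 had a median of 0.693. Over all genes the same medians were 0.219 and 0.79.

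**Figure D1:**
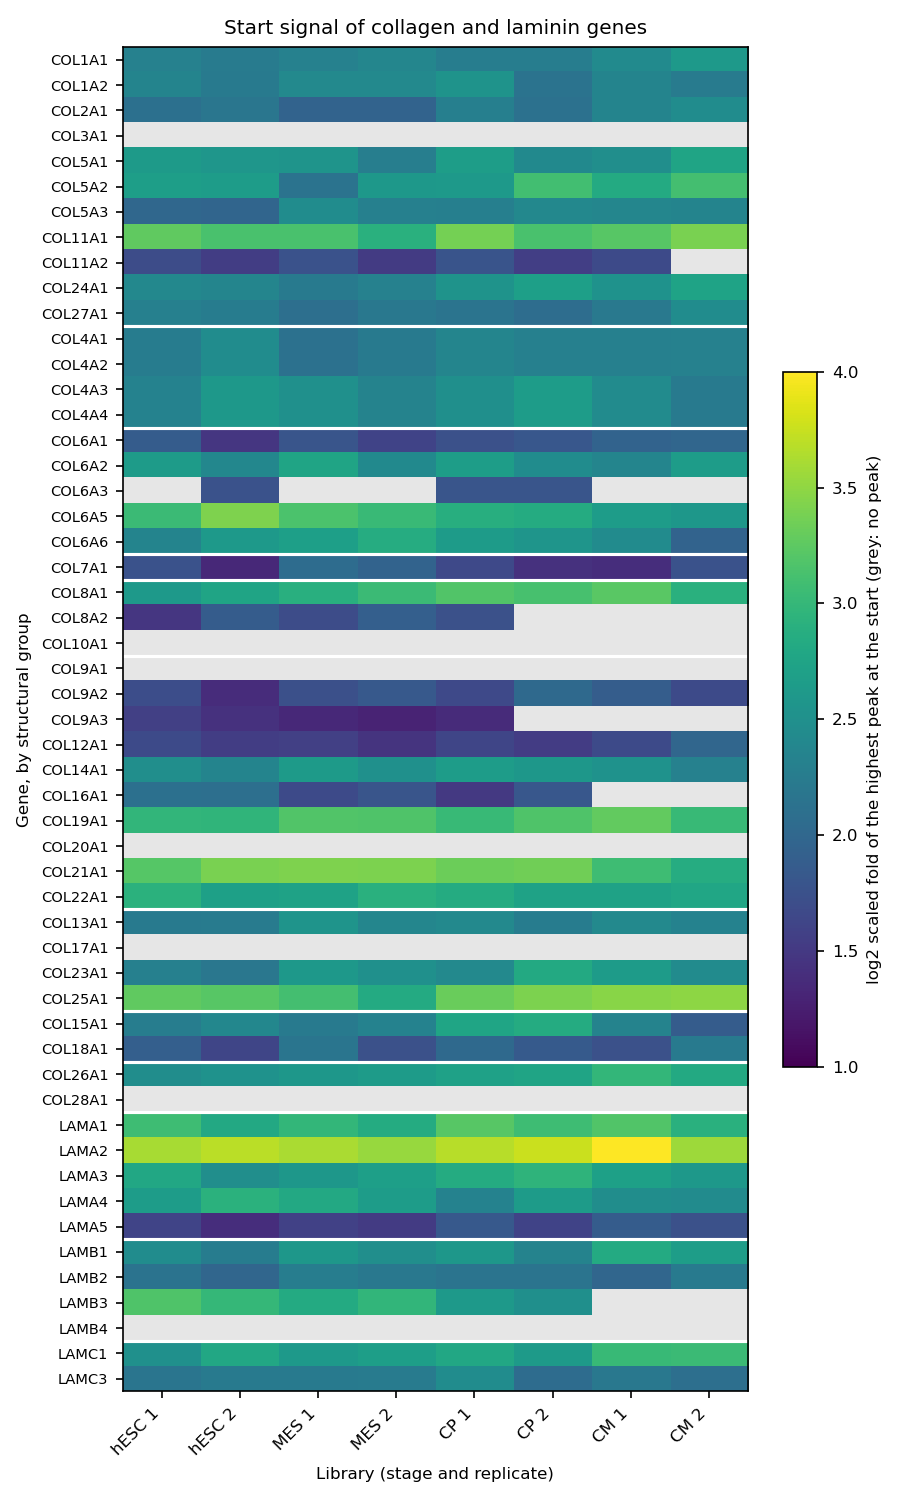
Log2 scaled fold of the highest start peak (colour) for the collagen and laminin genes reported here (rows, by structural group, white lines between groups) in each of the 8 libraries (columns), with grey where no peak was listed. Most rows keep a similar colour across the stages, 7 are grey throughout, and LAMB3 and COL16A1 turn grey in both CM libraries.

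Among the 41 genes with a start peak in all 8 libraries, the range of the 4 stage means had a median of 0.30 on the log2 scale, from 0.07 for COL22A1 to 0.70 for COL15A1. Over the 13109 genes with such a peak the median was 0.25. In a limma fit on log2 start signals of 15430 genes with a peak in at least 2 libraries, 2 of 47 members passed an adjusted p of 0.05 over the 4 stages, LAMB3 and COL16A1, against a background of 1.89% of all genes. At an unadjusted p under 0.05, 12 members (among them COL5A3, COL6A5, COL8A1, COL8A2, COL15A1, COL16A1, COL21A1, COL25A1, COL26A1, LAMB3 and LAMC1) stood beside 18.7% of all genes. All p-values below are from limma with Benjamini-Hochberg adjustment over all genes tested. Nothing states that the replicates were separate cultures, so that the p-values measure the spread between libraries. A stage with no peak in either library adds no measured spread to them.

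LAMB3 encodes the beta chain of the laminin of epithelial anchoring sites. Its start region had folds of 9.03 and 7.97 (hESC), 7.15 and 7.87 (MES), 6.18 and 5.63 (CP), and no peak in either CM library. The CP values lay below all hESC and MES values, and no CM value overlapped them. With a missing peak set to a fold of 1, the signal was lower in CM than in hESC by a log2 difference of -3.08 (SE 0.15, adjusted p = 0.000408) and than in CP by -2.56 (SE 0.15, adjusted p = 0.000987). With a missing peak set to the 5th percentile of each list's folds instead, the difference from hESC was -1.32 with an adjusted p of 0.000101, and the adjusted p over all alternatives ranged from 0.000101 to 0.0116. The fold of a missing peak is unknown, so that the size of this fall depends on that value. Both CM values were filled in at a fold of 1, so their SD of 0.00 is not a measured spread. The SE and adjusted p-values at that setting thus hold no CM spread. CM replicate 1 had the lowest median fold of the 8 lists, 4.08, and CM replicate 2 the fewest peaks, and their part in this result was not tested.

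Of the 8 regions inside LAMB3, 2 had a peak in both CM libraries. The region in intron 11, 24647 bases into the gene, was open in all 8 libraries, with folds of 6.71 and 6.77 (hESC), 5.05 and 5.6 (MES), 4.38 and 4.61 (CP) and 4.68 and 3.31 (CM). In that region the folds of CM, as of CP, lay below those of hESC. The region in intron 3 at 10605 bases had peaks in CM at 7.25 and 7.41, in CP replicate 2 at 6.1 and in hESC replicate 2 at 5.26. Within LAMB3 the region with the highest folds in CM was not the region with the highest folds in hESC.

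COL16A1 encodes a fibril-associated collagen with interrupted triple helices (FACIT). Its start had folds of 4.32 and 4.29 (hESC), 3.2 and 3.46 (MES), 2.82 and 3.51 (CP), and no peak in CM. A second region upstream, centred at -1304 bases from the start, had peaks in 7 libraries, among them CM replicate 1 at 3.42, so that 1 CM library had a peak upstream of COL16A1. The log2 difference of CM from hESC was -2.11 (SE 0.24, adjusted p = 0.00634) and of CM from CP -1.65 (SE 0.24, adjusted p = 0.0261). As for LAMB3, both CM values were filled in, so their SD of 0.00 is not a measured spread. The call against hESC was lost in 5 of 16 alternative settings and that against CP in 10. With a missing peak at the 5th percentile the first difference was -0.34 (adjusted p = 0.169) and the second 0.04 (adjusted p = 0.906). Leaving out either hESC library gave adjusted p-values of 0.0836 and 0.065 against hESC.

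**Figure D2:**
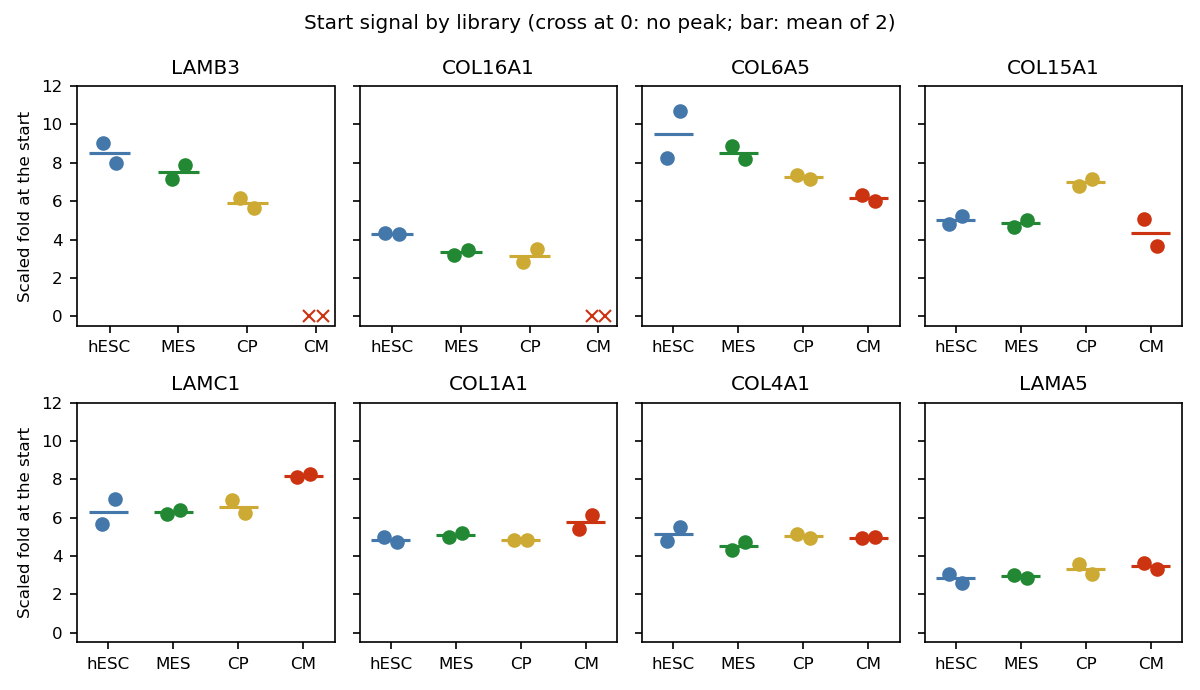
Scaled fold at the start (y axis, fold over local background) of 8 genes by stage (x axis), with 1 point per library, a bar at the mean of 2 libraries and a cross at 0 for no peak. LAMB3 and COL16A1 end in crosses at CM, COL6A5 goes from 8.26 and 10.7 to 6.32 and 5.99 without passing the test, and COL1A1, COL4A1 and LAMA5 stay within narrow ranges.

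By contrast, no member gained start signal by the test. From hESC to MES 0 of 47 members passed, against 0.0778% of all genes in either direction, with 1 member higher and 1 lower at an unadjusted p under 0.05, beside 2.59% and 2.98% of all genes. From MES to CP 0 passed, against 0.0194%, with 5 members higher and 0 lower at an unadjusted p under 0.05, beside 3.61% and 2.64%. From CP to CM 0 members were higher and 2 lower, against 0.123% and 1.09% of all genes, and 1 was higher and 6 lower at an unadjusted p under 0.05, beside 9.44% and 5.59%. Between hESC and CM 0 were higher and 2 lower, against 1.32% and 2.05%, and 6 members in each direction had an unadjusted p under 0.05, beside 15.8% higher and 9.15% lower. The signed difference of CM from hESC had a median of 0.02 over the 47 members, 28 above and 19 below 0, beside 0.07 over all genes, with 9465 above and 5836 below.

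Of the 11 fibrillar collagen genes 10 were tested and none passed. The difference of CM from hESC lay above 0 in 9 and below in 1, with a median of 0.17 on the log2 scale, beside the 9465 genes above and 5836 below 0 over all genes. COL1A1, the main chain of collagen I, had folds of 4.98 and 4.74 (hESC), 4.97 and 5.21 (MES), 4.82 and 4.84 (CP), and 5.42 and 6.16 (CM), where both values lay above all others. The difference from hESC was 0.25 (SE 0.12, adjusted p = 0.257).

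COL1A2, its partner chain, had folds of 5.09 and 4.69 (hESC), 5.31 and 5.32 (MES), 5.84 and 4.42 (CP) and 5.12 and 4.76 (CM), so that all stages overlapped. COL3A1, the chain of collagen III, had no start peak in any library but 2 regions in its first intron. The first, 1582 bases after the start, had folds of 7.88 and 7.08 (hESC), 6.55 and 7.35 (MES), 5.47 and 4.9 (CP), and 4.76 in CM replicate 2 with no peak in CM replicate 1. The second, at 4053 bases, was open in all 8 libraries with folds of 6.17 and 8.64 (hESC), 8.42 and 10.1 (MES), 7.53 and 9.25 (CP) and 6.94 and 4.94 (CM). COL3A1 therefore had open chromatin near its start at every stage, though outside the start window.

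COL5A3, a chain of the collagen that seeds fibrils, had folds of 4 and 3.94 (hESC) and 4.92 to 5.5 in the 6 later libraries, with no overlap between hESC and the rest. Its difference of CM from hESC was 0.38 (SE 0.13, adjusted p = 0.138), and it passed over the 4 stages with lists of equal length and with a window of 250 bases.

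The collagen IV genes sit in pairs with a shared start. COL4A1 and COL4A2, the chains of nearly every basement membrane, shared folds of 4.78 and 5.52 (hESC), 4.33 and 4.72 (MES), 5.17 and 4.95 (CP) and 4.94 and 4.99 (CM). The MES values lay below all others, and the difference of CM from hESC was -0.05 (SE 0.13, adjusted p = 0.851). COL4A3 and COL4A4, which serve kidney, lung and ear, shared a start interval of 418 bases with folds from 4.66 to 6.32. The 4 genes thus hold 2 separate start values.

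Collagen VI makes beaded filaments around muscle cells. COL6A1 had start folds of 3.65 and 2.79 (hESC), 3.47 and 3.05 (MES), 3.34 and 3.51 (CP) and 3.88 and 3.97 (CM), the 2 highest values. COL6A2 had folds between 5.16 and 6.71 that overlapped at all stages. COL6A3 had a start peak in hESC replicate 2 at 3.38 and in both CP libraries at 3.45 and 3.46 and in no other library.

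COL6A5, a further chain of this group, had folds of 8.26 and 10.7 (hESC), 8.86 and 8.19 (MES), 7.37 and 7.18 (CP), and 6.32 and 5.99 (CM). The CM values lay below all others, and its difference from hESC was -0.61 (SE 0.13, adjusted p = 0.0525). It passed against hESC with a missing peak at the 5th percentile, without hESC replicate 1, and when only the 13109 genes with a start peak in all 8 libraries were fitted, the last an alternative added after the data were seen. Its neighbour COL6A6 had folds from 3.89 to 7.23 and an adjusted p of 0.302 over the 4 stages.

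Among the laminins, 10 of 12 genes had a start peak in all 8 libraries, and LAMB3 and LAMB4 did not. LAMA1, the alpha chain of the early embryo, had folds of 8.4 and 7.04 (hESC), 7.91 and 7.16 (MES), 9.33 and 8.36 (CP) and 9.1 and 7.5 (CM). LAMA2, the alpha chain of mature muscle basement membrane, had the highest start fold of all members in each library, at 12.2 and 12.9 (hESC), 12.3 and 11.6 (MES), 12.8 and 13.5 (CP) and 16.1 and 11.8 (CM). Both genes overlapped between stages, and both hESC values of LAMA2 lay between its CM values.

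LAMA4, an alpha chain of vessels and heart, had folds of 6.3 and 7.54 (hESC), 7.02 and 6.3 (MES), 5.02 and 6.24 (CP) and 5.56 and 5.44 (CM). Its CM values lay below all hESC and MES values, with a difference from hESC of -0.33 (SE 0.15, adjusted p = 0.223). LAMA5, the alpha chain of the laminin that stem cells lay down and of many epithelia, had low folds of 3.07 and 2.62 (hESC), 3 and 2.88 (MES), 3.57 and 3.04 (CP) and 3.66 and 3.35 (CM).

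LAMB1 and LAMC1, the beta and gamma chains of the most widespread laminins, were both highest in CM. LAMB1 had folds of 5.48 and 4.79 (hESC), 6.01 and 5.6 (MES), 6.03 and 5.07 (CP) and 7.12 and 6.38 (CM), a difference of CM from hESC of 0.40 (SE 0.14, adjusted p = 0.145). LAMC1 had folds of 5.69 and 6.95 (hESC), 6.18 and 6.42 (MES), 6.94 and 6.22 (CP) and 8.1 and 8.26 (CM), a difference of 0.38 (SE 0.12, adjusted p = 0.122). In both genes the 2 CM values lay above all 6 others, yet neither passed. LAMB2, the beta chain of muscle and kidney, stayed between 3.98 and 4.81.

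COL15A1 and COL8A1 are further members with a stage order, given here because their values were seen. COL15A1, a basement membrane collagen of muscle and vessels, had folds of 6.8 and 7.16 (CP) and between 3.65 and 5.22 in the other 6 libraries, with an adjusted p of 0.206 over the 4 stages. COL8A1, a short-chain network collagen, went from 6.18 and 6.76 in hESC to 7.43 and 8.22 (MES) and to 7.51 to 9.39 in the later libraries, with an adjusted p of 0.229. Neither order passed the test.

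The members carried many more regions inside their genes than at their starts. Of the 1057 regions, 896 lay inside a gene, 65 at a canonical start, 39 at another protein-coding start and 57 in the flanks, and the centre of 853 (80.7%) lay in an intron of the canonical transcript. The start regions were mostly shared, with 41 of 65 (63.1%) open in all 8 libraries, while 52 of the 896 inner regions (5.8%) were. Away from any canonical start, 62 of 988 member regions were open in all 8, beside 15047 of 258543 autosomal regions, a similar share. The shares at starts and in introns were not computed over all genes, so they are not traits shown to be particular to the members. Peaks within the members made up 38.6 and 40 of every 10000 autosomal peaks in hESC and 36.3 and 36.2 in MES. They made up 34.2 and 38.2 in CP and 38.6 and 39.1 in CM, so the total share was similar between lists. The start peaks alone ranged from 4.12 (MES replicate 2) to 9.07 (CM replicate 2) per 10000. The peaks away from starts ranged from 27.8 (CP replicate 1) to 35.5 (hESC replicate 2).

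**Figure D3:**
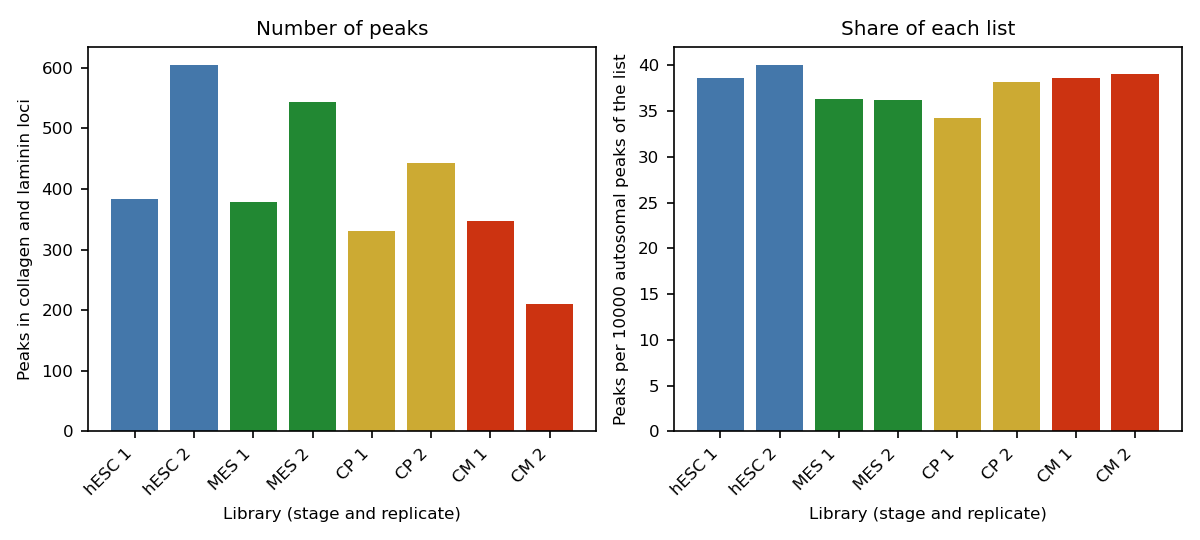
Number of peaks in collagen and laminin loci (left) and the same per 10000 autosomal peaks of the list (right) in each of the 8 libraries. The number lies between 604 in hESC replicate 2 and 211 in CM replicate 2, whereas the share stays between 34.2 and 40.

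Inside the genes, LAMA2 and COL24A1 were among the members with fewer peaks in CM than at any other stage. COL4A3, COL4A4, COL8A2, COL16A1, COL19A1 and COL26A1 were also among them. LAMA2, over its 633 kb, had 24 and 40 peaks away from the start in hESC, 18 and 40 (MES), 9 and 26 (CP) and 8 and 3 (CM). COL24A1, a fibrillar chain of developing bone and eye, had 10 and 18, 8 and 12, 6 and 13, and 4 and 2 peaks at the same stages. The lists of CM were also the shortest, and per 10000 autosomal peaks LAMA2 had 0.891 and 0.555 in CM against 0.933 to 2.66 in the others, and COL24A1 had 0.445 and 0.37 against 0.622 to 1.19. On that scale COL8A2 (0.111 and 0) and COL16A1 (0.223 and 0) also lay below all their other libraries. The share of all genes with such a pattern was not counted, so it cannot be called particular to these genes. In COL4A3, COL4A4, COL19A1 and COL26A1 the CM shares overlapped those of other stages. COL23A1, a transmembrane collagen with the most regions of all members (79), had 23 and 36 peaks in hESC, 28 and 31 (MES), 27 and 22 (CP) and 29 and 15 (CM), with no such fall.

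The summed signal of these inner peaks was fitted in the same way. Of the 54 members 0 passed, against 4.4% of all genes, and 10 (COL1A1, COL4A3, COL4A4, COL8A2, COL10A1, COL11A1, COL13A1, COL19A1, COL24A1 and LAMA2) had an unadjusted p under 0.05, beside 19.9% of all genes. COL24A1 came nearest, with an adjusted p of 0.0525. In simulated data this fit recovered 1 of 100 genes with a log2 change of 1 and 21 of 100 with a change of 2. The changed genes were drawn from those with a mean signal above the median. A count of 0 does not show that the signal was equal, and 2 members passed with lists of equal length, 2 with a stricter q and 3 with the gene span alone, where 11.3%, 7.28% and 6.27% of all genes passed.

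**Figure D4:**
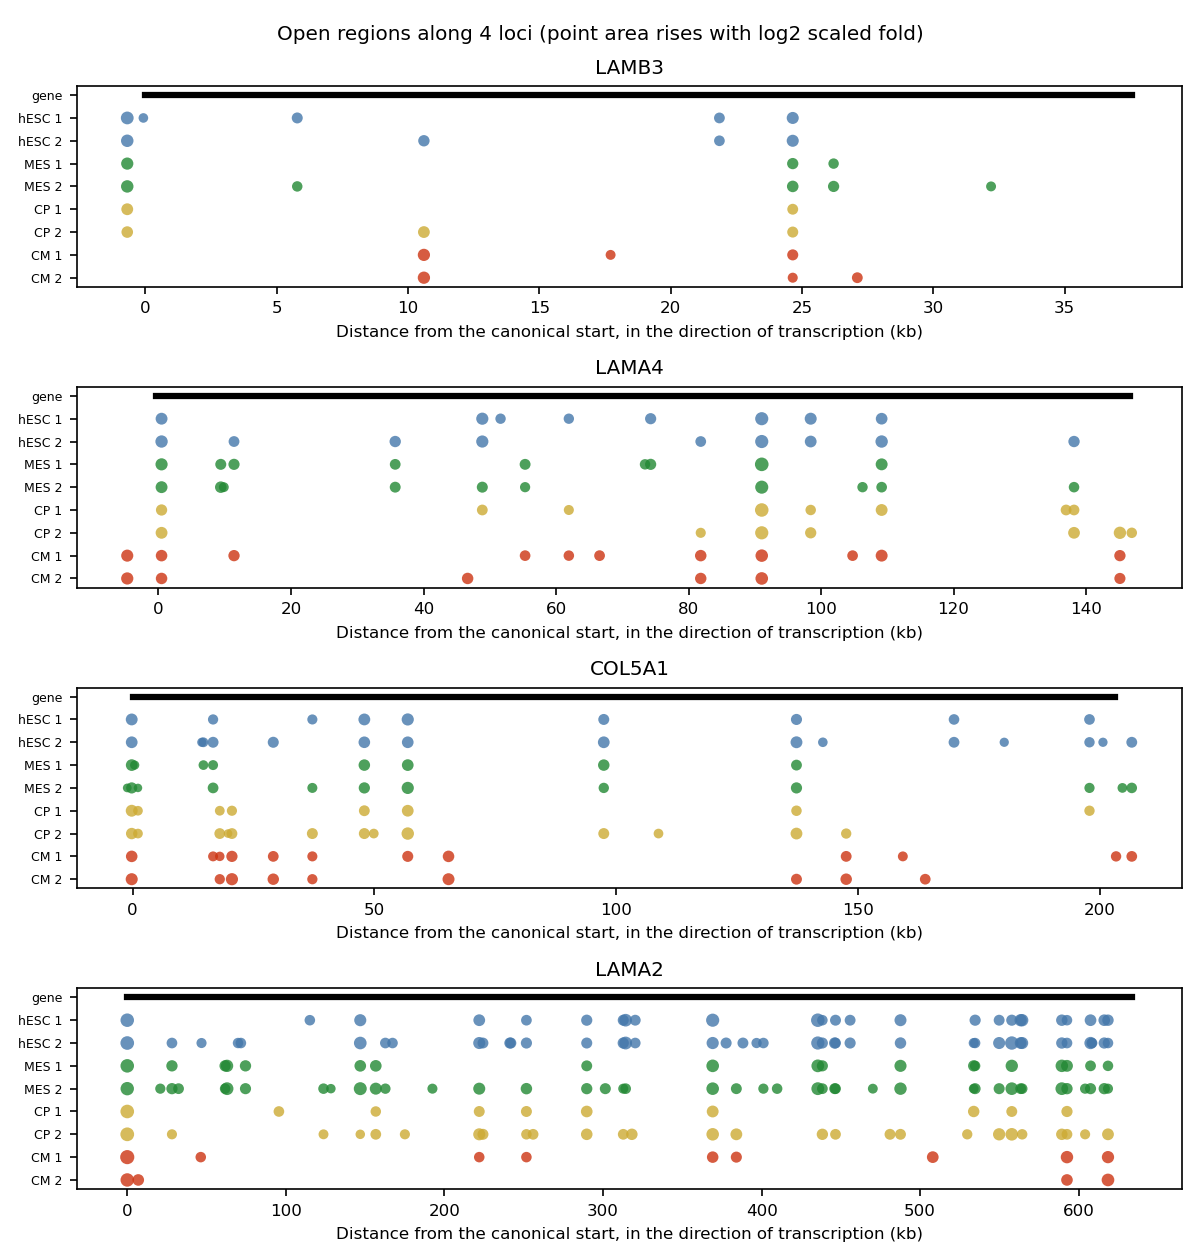
Regions open in each library (rows, coloured by stage) along LAMB3, LAMA4, COL5A1 and LAMA2, against the distance from the canonical start in kb in the direction of transcription, with the gene as a black bar and the point area rising with the log2 scaled fold. In CM, LAMB3 has no start region, LAMA4 has a region 4.71 kb upstream, COL5A1 has regions in its first introns that are missing in hESC and MES, and LAMA2 has 8 and 3 peaks away from its start.

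Regions open at chosen stages were counted where both libraries of the named stages had a peak and no other library did. The members had 28 regions open in hESC only (2.65%, against 2.99% of all autosomal regions), 20 in MES only (1.89% against 2.74%), 6 in CP only (0.568% against 0.728%) and 13 in CM only (1.23% against 1.06%). A further 19 were open in hESC and MES (1.8% against 1.59%), 7 in CP and CM (0.662% against 0.452%), 21 in hESC, MES and CP (1.99% against 2.59%) and 107 in all 4 stages (10.1% against 9.84%). These shares lay near those of the whole genome, and 449 regions (42.5%, against 40.7%) had a peak in 1 library.

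**Figure D5:**
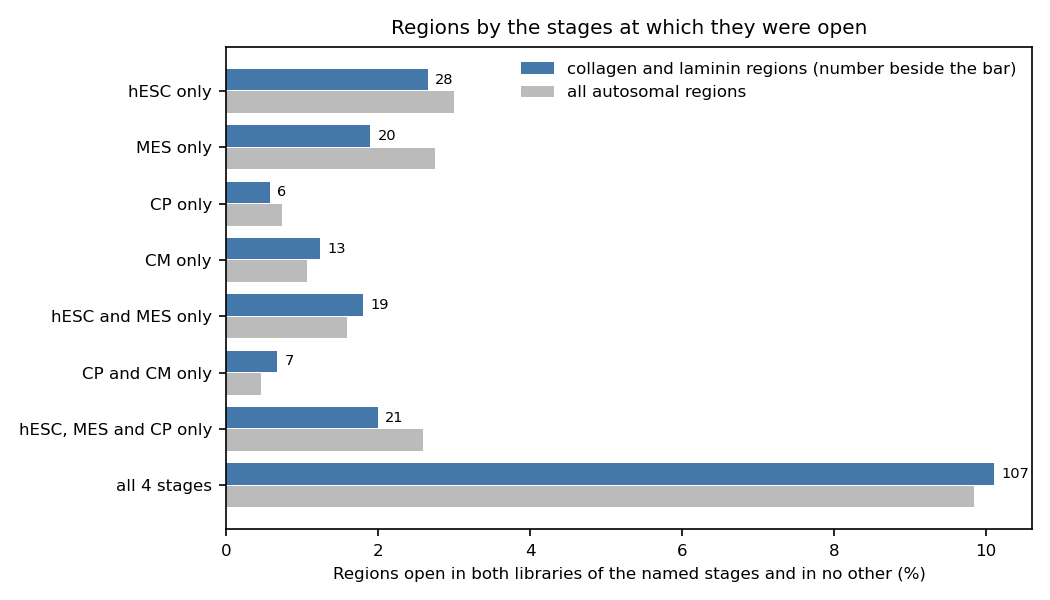
Percent of regions open in both libraries of the named stages and in no other library, for the 1057 collagen and laminin regions (blue, with their number) and all 276061 autosomal regions (grey). The 2 bars of each pattern lie close together, from 0.568% and 0.728% for CP only to 10.1% and 9.84% for all 4 stages.

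The 13 regions open in CM only lay in 13 different genes, namely COL4A1, COL4A2, COL5A1, COL5A2, COL7A1, COL11A1, COL14A1, COL22A1, COL23A1, LAMA4, LAMB4, LAMC1 and LAMC3. The strongest, by −log10 q in the weaker library (21.2), lay 4.71 kb upstream of LAMA4 with folds of 6.87 and 7.19, and the sequence shown for it holds 1 GATA motif. The next (18.2) lay in intron 4 of COL5A1 with folds of 5.57 and 6.56, and its sequence holds none of the marked motifs. COL4A1 had one in intron 24 with folds of 6.06 and 8.1, and LAMC1 one in intron 9 with folds of 4.08 and 5.21. At the starts of COL5A1 and COL4A1 the CM folds overlapped those of hESC, and at that of LAMA4 they lay below them. At the start of LAMC1 the CM folds, 8.1 and 8.26, lay above those of all other libraries.

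The 7 regions open in CP and CM lay in COL23A1 (3), COL5A1 (2), COL6A2 and COL6A6. The 2 shown for COL23A1 lie in intron 2, 125 and 141 kb from the start. The former had folds of 3.77 and 5.88 (CP) and 3.64 and 6 (CM), the latter 4.6 and 7.19 (CP) and 5.13 and 6.29 (CM). In COL5A1 both regions lay in intron 1, and the one at 20539 bases had folds of 3.45 and 4.31 (CP) and 4.97 and 7.06 (CM). COL5A1 thus had 3 regions open in late stages only while its start folds in CM, 5.57 and 6.72, overlapped those of hESC, 6.23 and 5.95.

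Earlier stages had their own regions. The hESC regions shown for COL8A1 (intron 1) had folds of 7.52 and 7.46 and for COL24A1 (intron 5) of 6.24 and 8.95. The MES region shown for COL17A1 (intron 9) had folds of 5.49 and 5.38, with 2 GATA motifs. The CP regions had lower folds, 4.96 and 4.86 near COL5A2, 42.9 kb upstream of its canonical start, and 3.4 and 2.89 in intron 36 of COL4A2.

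GATA motifs were common in regions of MES and of later stages, in the members as elsewhere. Away from starts, 11 of 20 member regions open in MES only (55%) held a GATA motif within 200 bases, against 47.5% of all such regions, and 10 of 26 open in CP, in CM or in both only (38.5%), against 48.9%. The shares were 5 of 28 (17.9%) for hESC only, against 23.5%, and 8 of 62 (12.9%) for all 4 stages, against 17.3%. The AP-1 and TEAD motifs marked in the LAMB3 start region occurred in 8.21% and 14.8% of all autosomal regions away from starts. No such share was computed over start regions, the kind to which the LAMB3 region belongs. A match describes letters and not binding.

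At the starts themselves, 39 members matched the RefSeq table of upstream sequences. Of these 24 (61.5%) held a GC box (GGGCGG) in 250 bases, against 57.1% of 14616 autosomal genes. A CCAAT box was found in 8 (20.5% against 34.5%) and a TATAAA motif in 5 (12.8% against 9.3%, COL6A2, COL6A6, COL7A1, COL13A1 and COL17A1). COL16A1 was 1 of 3 members with the E-box (7.69% against 13.5%).

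Other genes of the matrix pathway were counted from lists set by function. Over all genes 1.89% passed over the 4 stages, and 1.32% were higher and 2.05% lower in CM than in hESC. Of 7 partners of the basement membrane, nidogens (NID1, NID2), HSPG2, AGRN, SPARC, FN1 and PXDN, 0 passed, and all had a start peak in every library. Of 18 genes for collagen processing 0 passed over the 4 stages and 2 passed between hESC and CM. PLOD1, a lysyl hydroxylase, rose from 5.63 and 5.83 to 8.24 and 8.47 (log2 difference 0.54, SE 0.09, adjusted p = 0.0202), and P4HA3, a prolyl hydroxylase subunit, fell from 9.81 and 10.6 to 6.72 and 5.07 (-0.81, SE 0.15, adjusted p = 0.0346). Of 13 receptor genes tested and 5 proteases and inhibitors tested, 0 passed. The collagen receptor DDR2 had start peaks in 4 libraries, both CM libraries among them, and the laminin receptor gene ITGB1 had folds from 7.4 to 9.5 in all 8.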

How the data were processed

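ATAC-seq was analysed from the 8 deposited peak lists, 2 per stage. Per the labels and the study's methods, the authors aligned reads to hg38 with BWA-MEM (BWA 0.7.13), filtered for primary alignments of mapping quality over 30 without duplicates (Picard), and ran MACS2 2.1.0 on each library (q-value 0.01, shift of 100 bp against the read, extension of 200 bp); bedtools 2.26.0 is also named. Each deposited list gives a fold (ratio of pileup to local background), a −log10 p-value and a −log10 q-value per peak; the deposited display score was not used. Lists hold no read counts, so the background pileup of each library was recovered from folds and p-values.

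Annotation was GENCODE 44. Peaks were merged across libraries where they overlapped. Start signal was log2 of the highest fold within 1 kb of the canonical start after division by a library factor (median ratio over 27170 regions open in all 8 libraries), with a missing peak at a fold of 1. Inner signal was log2 of 1 plus the sum of scaled folds over the span with 5 kb flanks, outside the start window. Genes with a peak in at least 2 libraries were fitted with limma 3.58.1 (trend, 4 stages, R 4.3.3) at an adjusted p of 0.05. The script was tested on simulated data with 200 changed genes. These were drawn from genes with a mean signal above the median and were changed in CM only. The recovery rates thus do not cover genes of lower signal. For start signal it recovered 87 of 100 genes with a log2 change of 1 and 100 of 100 with 2. For inner signal it recovered 1 of 100 and 21 of 100, with 79 false calls among 15675 unchanged genes. Regions on chromosome 8 or with a UTR were left out of the choice of regions to print. Values were given for members past the threshold and for COL1A1, COL1A2, COL3A1, COL4A1, COL4A2, COL6A1, COL6A2, COL6A3, LAMA1, LAMA2, LAMA4, LAMA5, LAMB1, LAMB2 and LAMC1, and others named were chosen after their values were seen. The members, lists and rules were chosen with earlier results of these data known. Alternatives are given in the closing section. X-linked members were not analysed here. The values of 1 member and 1 region sequence are not reported here.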

Additional observations from a re-analysis of the deposited data

How the results depend on the processing

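The LAMB3 calls of CM against hESC and against CP kept direction and side of the threshold in all 15 settings that gave a value. With 250 bases on either side LAMB3 gave none, since its peak lies farther upstream. COL16A1 kept the call against hESC in 11 of 16 settings and against CP in 6, lost it in 5 and 10, and reversed against CP to 0.04 with a missing peak at the 5th percentile. Of members past the threshold over the 4 stages, 1 of 2 remained in number with the replicate block, any protein-coding start and genes with a peak in all 8 libraries (COL6A5 there, an alternative added after the data were seen), and 1 to 4 with 1 library left out, 4 without CM replicate 1 (COL11A2, COL15A1, COL16A1 and LAMB3). It was 3 with missing peaks at the 5th percentile (COL6A5, COL25A1 and LAMB3), and 2 with lists of equal length (COL5A3 and LAMB3) or 250 bases (COL5A3 and COL16A1). Of all genes 0.979%, 1.69% and 2.63% passed in the first 3 settings, 0.762% to 5.98% with 1 library left out, and 4.58%, 2.58% and 1.84% in the last 3. Over all genes that count was 292, and 151 with the replicate block, 472 without a filter, 707 with missing peaks at the 5th percentile and 918 without CM replicate 1.

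For MES against hESC the count of members was 1 (COL5A3) with lists of equal length, where 0.927% of all genes passed. For CM against CP it was 1 with lists of equal length, the replicate block, missing peaks at the 5th percentile, any start or 250 bases, 0 with genes open in all libraries, and 1 to 4 with 1 library left out, with 0.313% to 1.14% of all genes in these settings but 5.67% without CM replicate 1. For CM against hESC it was 1 with genes open in all libraries or any start, beside 5.45% and 3.09% of all genes, and 1 to 3 with 1 library left out, beside 0.677% to 8.5%, the highest without CM replicate 1. For the inner signal it was 2 with lists of equal length, 2 with a stricter q (−log10 of 5), 3 with the gene span alone and 0 to 4 with 1 library left out, beside 11.3%, 7.28%, 6.27% and 0% to 10.7% of all genes, the last without CM replicate 1. The cause of these changes was not tested.

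Replicate numbers are shared between stages but correlations of their deviations ranged from -0.159 to 0.203, so they were not taken as pairs. The replicate block gave 0 calls among all genes for the inner signal, against 699.

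Among regions, CP only fell to 3 with a stricter q (0.684% of all regions), hESC and MES only to 11 (1.16%) and hESC, MES and CP only to 4 (1.79%) with lists of equal length. CP and CM only was 4, 3 and 3 with a stricter q, lists of equal length and peaks that cover 50% of a region (0.469%, 1.52% and 0.376%), and all 4 stages was 43 with the last (5.6%). With 1 library left out the counts ranged from 28 to 171 for hESC only, 21 to 110 for MES only, 7 to 66 for CP only, 13 to 78 for CM only, 20 to 40 for hESC and MES, 7 to 13 for CP and CM, 21 to 48 for hESC, MES and CP, and 106 to 133 for all 4 stages; a stage left with 1 library needs a peak in that library alone, which raises these counts by construction. The highest of them stood beside 14.5%, 11.8%, 6.46%, 6.52%, 2.9%, 1.16%, 5.94% and 13.1% of all regions, in the same order. Depth limits what a missing peak can show.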

Other observations

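Several members had open chromatin at a start other than the canonical one. COL9A1, a chain of cartilage collagen IX with no peak at its canonical start, had a region at the start of a shorter transcript, 19887 bases downstream, open in all 8 libraries with folds of 7.55 and 6.24 (hESC), 7.09 and 6.39 (MES), 6.02 and 8.1 (CP) and 6.96 and 6.96 (CM). COL23A1 had a second open start at 12675 bases, with folds from 5.23 to 6.17 in all 8. COL8A2, whose canonical start had peaks in 5 libraries with folds up to 3.76, had another start at 24973 bases with peaks in 7 libraries and folds from 3.6 to 5.62.

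Other such starts were open at some stages. One within LAMA2, 607545 bases from the canonical start, had folds of 5.9 and 7.44 (hESC) and 4.24 and 4.8 (MES) and no peak in CP or CM. One within LAMB4, at 66462 bases, had peaks in MES replicate 2 (3.88), CP replicate 2 (6.73) and both CM libraries (5.63 and 5.09), while the canonical start of LAMB4 had none. One within COL6A5, at 97812 bases, had folds of 7.53 and 8.13 (MES) and 4.4 in hESC replicate 1. Whether transcripts start there was not tested.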
